A study of Mus musculus with 4 samples.

Results

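At E10.5, dissections of the embryonic mouse heart held a small group of *Csf1r*+ myeloid cells. They were picked out here from 10x single-cell RNA-seq libraries of the whole cardiogenic region. Whether they lay in heart tissue, in blood or in adjoining tissue was not tested. A barcode was kept when it held at least 1500 genes and at most 10% mitochondrial UMIs (unique molecular identifiers, which count captured transcripts). A kept barcode was called *Csf1r*-gated when it held at least 1 UMI of *Csf1r*, the receptor for the macrophage growth factor CSF1, and at least 2 UMIs of *Fcer1g* and *Tyrobp* together, the signaling adaptors of many myeloid receptors. It was dropped at 15 or more UMIs of *Tnnt2* per 10000 (cardiomyocytes), at 500 or more of *Hbb-y* (red blood cells), or at 4 or more of *Pecam1*, *Cdh5* and *Ecscr* together (endothelium). These conditions left 86 cells of 30415 kept barcodes (50436 deposited). At the edge of the rule, 17 of the 86 cells held exactly 1 *Csf1r* UMI, and 238 kept barcodes met the adaptor condition without any *Csf1r* (96 of them with 10 or more adaptor UMIs); the lowest adaptor count inside the gate was 5, and 6 barcodes were dropped by the *Tnnt2* or *Hbb-y* limits. Because transcripts chose the cells, their differences from other barcodes are given as a description and were not tested.

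Embryonic macrophages arise first from yolk sac progenitors and seed organs before bone marrow exists. They depend on CSF1R and on the transcription factor PU.1 (gene *Spi1*), and as they mature they gain complement C1q, scavenger receptors and lysosomal proteases, with which they clear dying cells. Their precursors resemble early granulocyte and monocyte progenitors and carry transcripts of granule proteins such as *Mpo* and *Prtn3*.

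The 4 libraries were made from E10.5 hearts. The 2 control libraries (replicates 5 and 7) carried *Tie2flfl*, and the 2 *Tie2-cko* libraries (replicates 6 and 8) carried *Nfatcre-Tie2flfl*; all 4 thus shared the floxed *Tie2* (*Tek*) alleles and differed in the *Nfatc1* knock-in Cre, which acts in endocardial cells (EdCs). The mice were kept on a background that mixed 129 with C57/BL6, the whole cardiogenic region was dissociated, and control and mutant libraries were said to come from the same litter, without naming which libraries formed a pair. The methods describe a pair of hearts for each genotype and stage, without saying how these were divided over the libraries. The targeted gene was checked first. After each barcode was thinned to 5000 UMIs, *Tek* was seen in 28.3% and 41.6% of the barcodes past the endothelial limit in controls 5 and 7, and in 13.2% and 10.8% in *Tie2-cko* 6 and 8.

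The libraries did not weigh equally, and they stood apart in several ways. Control 5 gave 39 *Csf1r*-gated cells of 9019 kept barcodes, *Tie2-cko* 6 gave 24 of 4468, control 7 gave 13 of 7965 and *Tie2-cko* 8 gave 10 of 8963. Replicates 5 and 6 thus held 63 of the 86 cells. The median *Csf1r*-gated cell had 27877 UMIs in control 5, 28075 in control 7, 58628 in *Tie2-cko* 6 and 27671.5 in *Tie2-cko* 8, and the median kept barcode was also deepest in library 6 (36302.5 against 22023, 16625 and 18758 in libraries 5, 7 and 8). Control 5 also mixed cells of both sexes: of its 39 cells, 4 held *Xist* alone, 24 held Y-linked transcripts alone and 1 held both, whereas in the other 3 libraries no *Csf1r*-gated cell held *Xist*. Barcode sequences recurred between libraries 260 times over the 6 pairs of libraries, but no 2 *Csf1r*-gated cells of different libraries shared a barcode.

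Of the 86 cells, 5 had more than 2 times the median UMIs of their library's *Csf1r*-gated cells. Of these, 4 lay in *Tie2-cko* 6, with 150246 to 279965 UMIs, and supplied 44.0% of all UMIs from the *Csf1r*-gated cells of that library. Each held 83 to 145 UMIs of *Tnnt2* and 34 to 59 of *Col3a1*, a fibrillar collagen gene, but none of the mannose receptor *Mrc1*. Their mean level of *Fcer1g* and *Tyrobp* together was 0.973 per 10000, against 19.9 in the other 20 cells of that library. In that library 168 kept barcodes (3.76%) were at least as deep as the shallowest of the 4. The remaining deep barcode, in *Tie2-cko* 8 with 60603 UMIs, held 48 UMIs of *Tnnt2* and also 61 of *C1qb*. Its *Fcer1g* and *Tyrobp* together stood at 16.2 per 10000, against 17.8 in the other cells of that library. *C1qb* was at 10.1 against 5.57, and *Tnnt2* at 7.92 against 1.15. The EdC marker *Emcn* was at 3.96 against 0, and the cardiomyocyte genes *Ttn* and *Myl7* at 7.92 against 0.969 and 37.5 against 6.22. This barcode thus held macrophage transcripts together with those of other heart cells. All 5 passed the gate and stay among the 86, while the levels below are given for the other 81 unless stated otherwise.

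The label "embryonic macrophages" held for most of these cells but not for all. Of the 81 cells, 51 held *C1qb* (25 of 39 in control 5, 9 of 13 in control 7, 10 of 20 in *Tie2-cko* 6 and 7 of 9 in *Tie2-cko* 8) and 30 held none. The lowest *C1qb* count in a *C1qb*+ cell was 3 UMIs and the median was 36, but this is the gene that made the split. By granule transcripts the 2 sets overlapped, since 21 of the 51 *C1qb*+ cells held *Mpo* or *Prtn3*. The cells without *C1qb* had a median of 37389.5 UMIs, against 28103 in the cells with it, and they were the deeper set in every library but *Tie2-cko* 8 (16164.5 against 30680 UMIs, from 2 and 7 cells). Of the 30 *C1qb*-negative cells, 29 held *Mpo* or *Prtn3*, 0 held *C1qa*, *C1qc*, *Mrc1* or *Timd4*, and 2 held *Adgre1* (F4/80). All 51 *C1qb*+ cells held the fractalkine receptor *Cx3cr1*, 50 held *C1qc*, 45 *C1qa*, 36 *Adgre1* and 31 *Mrc1*. The cells are therefore called *Csf1r*-gated as a whole and C1q+ or C1q-negative below, a split that was made after the values were seen and is not tested.

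**Figure D1:**
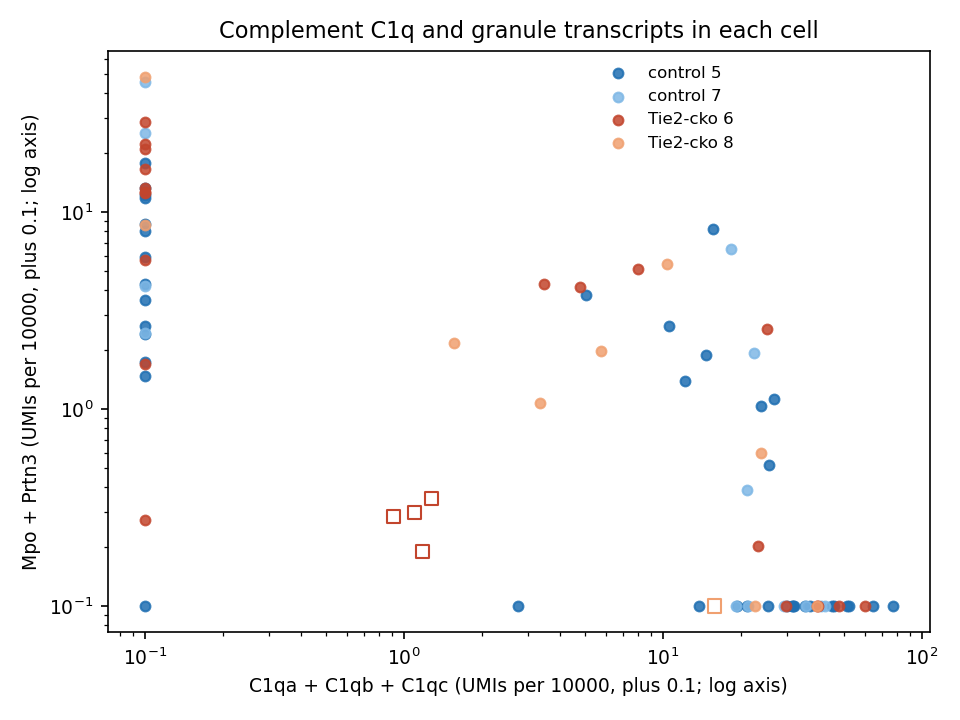
Each point is 1 of the 86 *Csf1r*-gated cells, placed by its summed C1q transcripts (x) and its summed *Mpo* and *Prtn3* transcripts (y), both in UMIs per 10000 plus 0.1 on log axes; open squares are the 5 deepest barcodes. The 30 cells without C1q line up at the left edge, 29 of them with granule transcripts, and most of the cells rich in C1q lie on the lower edge, with 21 of the 51 *C1qb*+ cells in between.

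The genes that drew this line are shown by their start regions, because their transcripts split the cells. *C1qa*, *C1qb* and *C1qc*, the chains of complement C1q, lie within 18.7 kb on chromosome 4 of mm10, all on the minus strand (*C1qb* at chr4:136880129-136886187, *C1qc* at chr4:136889804-136893065 and *C1qa* at chr4:136895917-136898803). *Mpo*, encoding myeloperoxidase, lies at chr11:87793581-87804413 and *Prtn3*, encoding proteinase 3, at chr10:79874476-79883174, both on the plus strand. The windows below, from RefSeq on GRCm38.p6, run 5′ to 3′ on each gene's strand, from 250 bases before the RefSeq start site to 50 after it. These start sites are not the GENCODE gene starts given above, and the *Prtn3* window lies inside the longer GENCODE span of that gene. Capitals mark GAGGAA, or TTCCTC on the opposite strand, the letters at the core of sites known for PU.1.
*C1qb*, chr4:136886151-136886450: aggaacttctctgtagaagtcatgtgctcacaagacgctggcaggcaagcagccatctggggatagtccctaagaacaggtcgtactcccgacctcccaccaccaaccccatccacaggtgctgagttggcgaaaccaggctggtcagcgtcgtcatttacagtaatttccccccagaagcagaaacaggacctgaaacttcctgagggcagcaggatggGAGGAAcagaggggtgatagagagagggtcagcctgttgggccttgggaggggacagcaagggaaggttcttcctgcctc
*C1qc*, chr4:136892865-136893164: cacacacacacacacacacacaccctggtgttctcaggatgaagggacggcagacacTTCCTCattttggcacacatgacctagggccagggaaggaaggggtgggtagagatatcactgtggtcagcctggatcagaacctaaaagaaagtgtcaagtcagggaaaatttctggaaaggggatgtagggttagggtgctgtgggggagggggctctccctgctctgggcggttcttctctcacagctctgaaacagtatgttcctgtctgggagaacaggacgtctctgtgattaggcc
*Mpo*, chr11:87793534-87793833: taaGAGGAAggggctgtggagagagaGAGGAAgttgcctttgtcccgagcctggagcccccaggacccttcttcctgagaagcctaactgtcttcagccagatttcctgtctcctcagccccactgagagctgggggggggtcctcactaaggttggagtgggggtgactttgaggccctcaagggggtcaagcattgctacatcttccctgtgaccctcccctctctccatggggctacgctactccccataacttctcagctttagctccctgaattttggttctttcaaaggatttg
*Prtn3*, chr10:79879417-79879716: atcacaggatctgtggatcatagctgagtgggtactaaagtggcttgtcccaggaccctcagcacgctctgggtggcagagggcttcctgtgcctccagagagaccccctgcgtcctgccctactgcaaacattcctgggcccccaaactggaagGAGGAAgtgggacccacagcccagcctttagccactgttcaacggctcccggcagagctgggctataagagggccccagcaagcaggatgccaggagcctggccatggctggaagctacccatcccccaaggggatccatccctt
All 4 windows held the letters at least once, *Mpo* 2 times, and 28.3% of the 32851 mouse start regions in the same table held them too. The 4 genes were chosen for their transcripts and were not compared with other lists. *C1qa*, the fifth gene looked up, had no window among these start regions, so whether it holds the letters is not known. The first letter of the match lay at -30 in *C1qb*, -193 in *C1qc*, -247 and -224 in *Mpo*, and -95 in *Prtn3*, counted from the start site.

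Seen across all 86 cells, the genes furthest above the other kept barcodes were myeloid genes. Among 1226 genes at 1 or more UMI per 10000 in the gated cells of every library, a filter passed by the level in the gate alone, the highest ratio was that of *Ccl3*, a chemokine that draws monocytes and macrophages, at 3.02, 4.19, 3.34 and 3.65 per 10000 in control 5, control 7, *Tie2-cko* 6 and *Tie2-cko* 8 against a mean of 0.000740 in the rest. It was followed by *C1qa*, *C1qc*, *C1qb* and *Cx3cr1*. Further genes among the first 20 were *Ly86*, *Aif1*, *Tyrobp*, *Cd52*, *Fcgr3*, *Spi1*, *Fcer1g*, *Cyth4*, *Coro1a*, *Lst1*, *Laptm5*, *Cd68*, *Irf8* and *Nrros*, all of them hematopoietic or myeloid genes, with *Nrros* lowest at 98.3 times the rest. *Fcer1g* and *Tyrobp* were used to choose the cells, and the other ratios come from the same barcodes, so they are a description.

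Of the 5 markers given for this cell type, *Csf1r*, *Fcer1g* and *Tyrobp* chose the cells and *C1qb* made the split, so only *Ptprc* was free to vary. *Csf1r* itself averaged 2.54, 2.13, 1.61 and 1.76 per 10000 in C1q+ cells of controls 5 and 7 and *Tie2-cko* 6 and 8, and 0.587, 0.339, 0.703 and 1.71 in C1q-negative cells. The last of these values rests on 2 cells. *Tyrobp* was high in both sets, at 13.5, 14.0, 13.9 and 10.2 in C1q+ cells and 7.24, 5.34, 9.56 and 13.7 in C1q-negative cells. *Ptprc* (CD45), the pan-leukocyte phosphatase, was found in 44 of the 51 C1q+ and 24 of the 30 C1q-negative cells.

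The shared core of the 2 sets was that of early myeloid cells. *Spi1* (PU.1) averaged 3.93, 3.30, 5.49 and 2.88 in C1q+ cells and 3.35, 3.39, 4.74 and 4.88 in C1q-negative cells, so the ranges overlapped. *Irf8*, a transcription factor of the monocyte lineage, likewise ran from 1.02 to 2.05 in C1q+ cells and from 0.806 to 1.94 in the others. The cytoskeletal regulators *Coro1a* and *Rac2* and the lysosomal membrane gene *Laptm5* also had overlapping ranges. By contrast *Maf*, a factor of mature macrophages, was at 3.85, 4.802, 2.72 and 4.40 in C1q+ cells and at or below 0.669 in all 4 libraries of C1q-negative cells. *Aif1* (IBA1) ranged from 1.85 to 3.56 against at most 0.253, and the Fc receptor *Fcgr3* from 1.49 to 3.36 against at most 0.483. Of the 22 macrophage identity genes, 22 reached 0.1 per 10000 averaged over libraries in C1q+ cells and 16 in C1q-negative cells. Counts of genes reaching 0.1 below use the same average unless a library is named.

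Genes of tissue-resident macrophages were nearly confined to the C1q+ set in these 81 cells. Of 12 such genes 9 reached 0.1 per 10000 in it, against 2 in the C1q-negative set, and their summed level was 11.001, 13.6, 13.1 and 7.26 against at most 0.893. *Dab2*, an endocytic adaptor, was the most abundant at 3.66, 4.36, 5.75 and 3.36. *Mrc1* (CD206) reached 1.69, 2.09, 1.29 and 1.99, and the phosphatidylserine receptor *Timd4* was held by 15 of 51 cells. *Lyve1*, which marks a perivascular kind of macrophage and lymphatic vessels, was held by 14 of 51 and averaged 0.893 in *Tie2-cko* 6 but 0.0628 in *Tie2-cko* 8. *Cd163*, the hemoglobin scavenger receptor of many adult macrophages, was at 0 in all 81 cells. Of 8 microglial genes, *Trem2* led, at 2.07, 2.27, 2.16 and 0.643, whereas *Sall1*, the factor that defines adult microglia, was at 0 in the C1q+ cells.

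**Figure D2:**
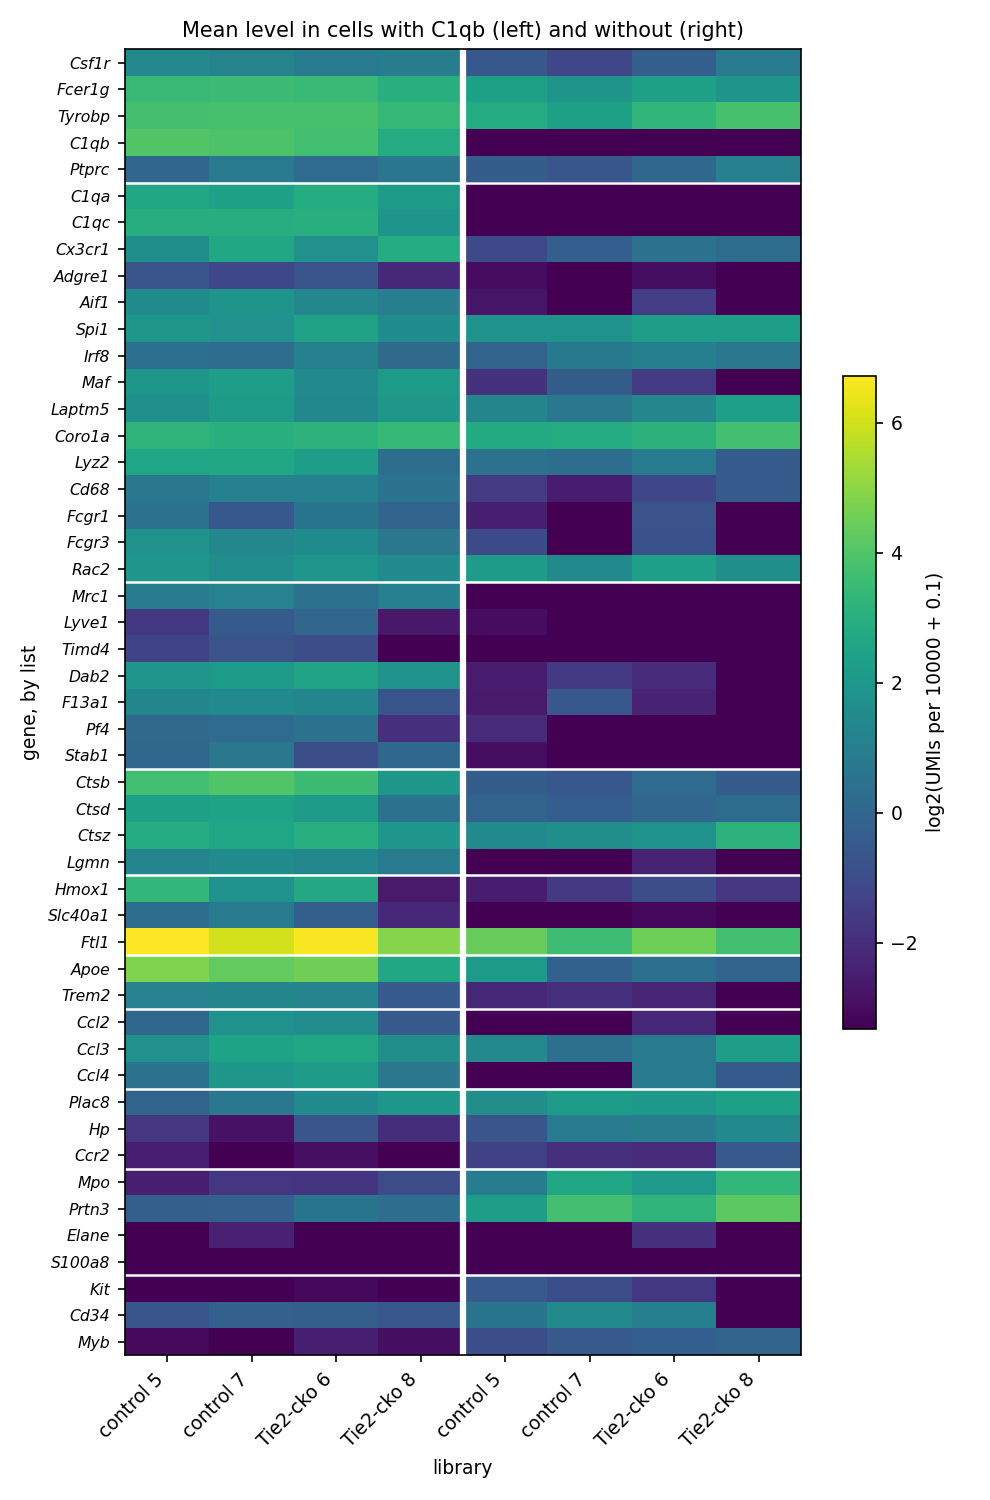
Mean level of selected list genes in C1q+ cells (left 4 columns) and C1q-negative cells (right 4 columns) of each library, as log2(UMIs per 10000 + 0.1), with the 5 deepest barcodes left out. *Spi1*, *Coro1a* and *Rac2* fill both sides, the C1q and resident genes fill the left side, and *Mpo*, *Prtn3* and *Myb* fill the right side.

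The C1q-negative cells carried transcripts of early granule genes and of some progenitor genes. *Prtn3* averaged 4.76, 13.2, 9.24 and 18.4 per 10000 in controls 5 and 7 and *Tie2-cko* 6 and 8, and *Mpo* 1.83, 6.04, 4.07 and 9.99. In C1q+ cells both were lower in every library, at 0.714 to 1.39 for *Prtn3* and 0.0791 to 0.389 for *Mpo*. Among the kept barcodes outside the gate they were at most 0.0563 and 0.0270. *Cd34*, a progenitor surface marker, was held by 26 of the 30 cells, the transcription factor *Myb* by 20 and the stem cell factor receptor *Kit* by 16, against 27, 5 and 1 of the 51 C1q+ cells. Averaged over libraries, 4 of the 8 progenitor genes reached 0.1 per 10000 in C1q-negative cells and 2 in C1q+ cells. *Flt3*, *Gata2*, *Hoxa9* and *Hlf* stayed under it in both. In single libraries of C1q-negative cells *Hoxa9* was at 0.244 in control 5, and in control 7 *Hoxa9*, *Gata2* and *Hlf* were at 0.109, 0.109 and 0.119. In *Tie2-cko* 8 the 2 C1q-negative cells held neither *Kit* nor *Cd34*, while *Cd34* averaged 0.557 in the C1q+ cells there. The late granule genes *S100a8*, *S100a9*, *Ngp*, *Camp* and *Ctsg* were at 0 in all 81 cells, and *Elane*, the neutrophil elastase gene next to *Prtn3* (3072 bases away), did not exceed 0.168. Of the monocyte genes *Plac8* was the most abundant at 3.04 to 5.2004, while *Ly6c2* and *Chil3* were at 0.

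Some barcodes held both C1q and granule transcripts. Whether any of them mixed several cells was not tested. Of the 51 C1q+ cells, 21 held *Mpo* or *Prtn3*, with at most 25 UMIs of *Prtn3* against up to 153 in a C1q-negative cell. Only 5 of these 21 also held *Mrc1*, whereas 26 of the 30 C1q+ cells without granule transcripts did. Of the 21 cells with granule transcripts, 21 held *Prtn3* and 9 held *Mpo*. By library, *Prtn3* was held by 8 of 25, 3 of 9, 5 of 10 and 5 of 7 C1q+ cells in controls 5 and 7 and *Tie2-cko* 6 and 8. Endothelial barcodes, which should lack it, held *Prtn3* in 1.79%, 0.334%, 1.09% and 0.622% of cases before thinning, and cardiomyocyte barcodes in 3.20%, 1.51%, 4.85% and 1.96%, so the C1q+ cells were above both in all 4 libraries. The median depths behind these shares were 15555, 12599, 28132 and 11784.5 UMIs in endothelial barcodes, 28820.5, 21785.5, 50129 and 24242.5 in cardiomyocyte barcodes, and 25552, 22780, 49656 and 30680 in C1q+ cells.

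Lysosomal genes were abundant in the C1q+ cells. All 14 reached 0.1 per 10000, and their summed level was 48.6, 55.8, 47.6 and 22.6 in controls 5 and 7 and *Tie2-cko* 6 and 8, against 10.9, 11.6, 13.6 and 18.5 in C1q-negative cells. The cysteine protease *Ctsb* led the list at 12.8, 16.1, 11.7 and 3.79. *Lgmn*, the asparagine endopeptidase, reached 1.60 to 2.80 and was at 0.102 or less in C1q-negative cells. *Tie2-cko* 8, with 7 C1q+ cells, was the lowest library for *Ctsb*, *Ctsd*, *Ctsl* and *Ctsz*.

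Iron and heme genes were abundant in C1q+ cells, and some were at least as abundant in red blood cells. The ferritin chains *Ftl1* and *Fth1* were the most abundant of the list, at 106, 64.9, 102 and 30.1 and at 60.0, 57.0, 67.7 and 32.0 in C1q+ cells. Red blood cell barcodes held more *Fth1*, at 81.5, 88.6, 83.5 and 82.0, and less *Ftl1*, at 32.7, 28.2, 33.7 and 27.5, although in *Tie2-cko* 8 the *Ftl1* levels were close. The biliverdin reductase *Blvrb* was at 8.41 to 8.62 in red blood cell barcodes and 0.366 to 1.55 in C1q+ cells. Heme oxygenase *Hmox1*, which opens the heme ring, averaged 10.0 in control 5, 3.40 in control 7, 6.61 in *Tie2-cko* 6 and 0.0653 in *Tie2-cko* 8, so the 2 *Tie2-cko* libraries were far apart. The iron exporter *Slc40a1* (ferroportin) was at 1.15, 1.68, 0.732 and 0.126, with the 2 control libraries above the 2 *Tie2-cko* libraries. *Spic*, a factor of heme-recycling splenic macrophages, was at 0 everywhere. *Hbb-y*, which the rule limits, was at 22.04, 6.81, 4.70 and 3.11 in controls 5 and 7 and *Tie2-cko* 6 and 8, close to the 24.5, 10.04, 6.72 and 4.10 of cardiomyocyte barcodes.

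Lipid and chemokine genes were mixed. Of 11 lipid handling genes 8 reached 0.1 per 10000 in C1q+ cells and 6 in C1q-negative cells, with sums of 47.1, 40.1, 38.7 and 14.1 against 8.74, 5.82, 7.01 and 13.1 in controls 5 and 7 and *Tie2-cko* 6 and 8. *Apoe*, an apolipoprotein abundant in macrophages, was at 27.1, 19.9, 23.5 and 6.29 in C1q+ cells and at most 4.39 in the others. In *Tie2-cko* 8 the lipase *Lpl* (3.19 against 7.83) and the lipid droplet gene *Plin2* (0.922 against 1.87) were lower in C1q+ than in C1q-negative cells, the latter being 2 cells. The scavenger receptor *Cd36* did not exceed 0.0652 in either set. The chemokine *Ccl3* was found in both sets, at 3.30, 5.51, 6.29 and 3.01 in C1q+ and 2.53, 1.21, 1.63 and 4.84 in C1q-negative cells. *Ccl2*, the ligand of CCR2, was nearly limited to the C1q+ set at 0.965, 3.29, 2.94 and 0.631 against at most 0.121. *Ccr2* itself, which marks monocyte-derived cells, did not exceed 0.0790 in C1q+ cells and ran from 0.127 to 0.608 in C1q-negative cells. The early response genes *Fos*, *Jun* and *Atf3*, which dissociation can also raise, were at 7.65, 7.70, 6.85 and 4.64, at 5.16, 6.62, 7.59 and 1.71, and at 1.76, 3.04, 6.37 and 0.545 in C1q+ cells; the part of handling in them was not tested.

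Several genes of adult macrophages were near zero, and others were not. Of 6 MHC class II genes only 1 reached 0.1 per 10000 among the 81 cells, and *Ciita*, their master regulator, and *H2-Eb1* were at 0. *Il10* was at 0. Of 10 phagocytic receptor and bridging genes 5 reached 0.1 in C1q+ cells and 0 in C1q-negative cells; the scavenger receptor *Stab1* led at 0.925, 1.49, 0.429 and 0.932, while *Marco* and *Stab2* were at 0. *Mmp12* was at 0, and of 10 matrix genes 3 reached 0.1. Among ligands that act on vessels, *Vegfc* and *Pdgfb* did not exceed 0.0543, and *Vegfa* 0.203. *Vegfb* was at 0.450 to 1.16 in C1q+ cells and 0.536 to 0.855 in the others, under the 2.53 to 2.67 of cardiomyocyte barcodes. *Tgfb1* was at 0.653 to 1.85 in C1q+ cells and 1.31 to 1.75 in the others, beside 0.699 to 1.21 in endothelial barcodes and 2.96 to 3.41 in megakaryocyte barcodes of libraries 5, 6 and 8. *Gas6*, the bridge between apoptotic cells and TAM receptors, was at 0.456 to 0.806 in C1q+ cells and at 0 in the others.

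The gate required *Csf1r*, but it set no condition on the genes of its ligands CSF1 and IL-34. *Csf1* averaged at most 0.0889 and *Il34* was at 0 in the 81 cells. In the other kept barcodes *Csf1* was at 0.0291, 0.0319, 0.0348 and 0.0343 and *Il34* at no more than 0.000503. *Csf2ra*, a receptor subunit for GM-CSF, reached 0.259 to 0.509 in C1q+ cells.

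Markers of other cell types were checked in the 81 cells by whole lists. Of 9 megakaryocyte markers 0 reached 0.1 per 10000, with sums of 0.203, 0.146, 0.231 and 0.203 in controls 5 and 7 and *Tie2-cko* 6 and 8, *Itga2b* as the most abundant gene, and *Gp1ba*, *Ppbp* and *Gp6* at 0. *Pf4*, which megakaryocytes and some macrophages share and which was counted with the resident macrophage genes, was at 0.689, 0.730, 0.634 and 0.121 and was held by 20 of the 51 C1q+ cells. Of 6 mast cell markers 0 reached it averaged over libraries, and *Cpa3*, *Mcpt8* and *Ms4a2* were at 0, although *Hdc* was at 0.211 in control 5. Of 8 lymphoid markers only *Ighm*, at 0.573 averaged over libraries, reached it, and *Cd3e* was at 0. Of 6 mesenchymal markers 0 reached it. Of 4 epicardial markers *Upk3b* did, at 0.178 averaged over libraries, and in *Tie2-cko* 8 all 4 did (*Upk3b* 0.483, *Upk1b* 0.300, *Tbx18* 0.254 and *Wt1* 0.116), with list sums of 0.0210, 0.451, 0.0513 and 1.15 in controls 5 and 7 and *Tie2-cko* 6 and 8; and of 4 epithelial markers *Krt18* (0.199) and *Krt8* (0.101) did, with *Cdh1* at 0. The cardiomyocyte list summed to 11.1, 12.2, 4.37 and 16.02, with *Myl7* at 3.64 on average, and the endothelial list to 0.385, 0.331, 0.255 and 0.388, with only *Pecam1*, which leukocytes also express, at 0.211. The gate itself limited *Tnnt2* of the first list and *Pecam1*, *Cdh5* and *Ecscr* of the second, and the deepest barcodes were left out. Low sums of these lists were thus partly set by the choice of cells. The part of free cardiomyocyte RNA in these levels was not tested.

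Proliferation genes were compared with several classes of barcodes. The 12 S phase genes summed to 15.8, 13.5, 16.6 and 16.05 in controls 5 and 7 and *Tie2-cko* 6 and 8, against 9.31, 8.70, 10.54 and 8.44 in all other kept barcodes and 15.04, 10.4, 17.5 and 8.84 in megakaryocyte barcodes, of which controls 5 and 7 and *Tie2-cko* 6 and 8 held 62, 2, 53 and 7. The 13 G2 and mitosis genes summed to 18.8, 25.7, 20.5 and 19.7, against 16.4, 17.8, 18.4 and 17.1. All other kept barcodes pooled cardiomyocyte, endothelial, megakaryocyte and red blood cell barcodes with those of no gate. A pooled sum cannot show whether the *Csf1r*-gated cells stood above endothelial barcodes or those of no gate, and no such difference is read from it. After thinning to 5000 UMIs, *Mki67* was seen in 24 of 39, 7 of 13, 12 of 20 and 4 of 9 cells, or 61.5%, 53.8%, 60.0% and 44.4%. Before thinning the shares were 89.7%, 100%, 100% and 88.9%. Cardiomyocyte barcodes thinned in the same way gave 26.8%, 21.4%, 27.4% and 21.1%, a comparison that holds for cardiomyocyte barcodes alone. The C1q+ and C1q-negative sets had like sums, from 13.03 to 16.9 and from 13.2 to 17.5 for S phase.

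*Tek*, the gene deleted by the Cre, was rare in these cells. After thinning it was seen in 0 of 81 *Csf1r*-gated cells, which at 5000 UMIs a cell allows a share of cells with a UMI of up to 3.70% (3 counts of the total); this is no limit on the share that expressed it. Unthinned it was held by 12.8%, 7.69%, 5.00% and 0% of the cells in controls 5 and 7 and *Tie2-cko* 6 and 8, against 3.79%, 3.25%, 1.999% and 1.05% of cardiomyocyte barcodes. *Tie1* averaged at most 0.116 per 10000 in either set, and *Angpt1*, the TIE2 agonist, averaged 0.624, 0.448, 0.258 and 0 in C1q-negative cells and at most 0.0181 in C1q+ cells.

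**Figure D3:**
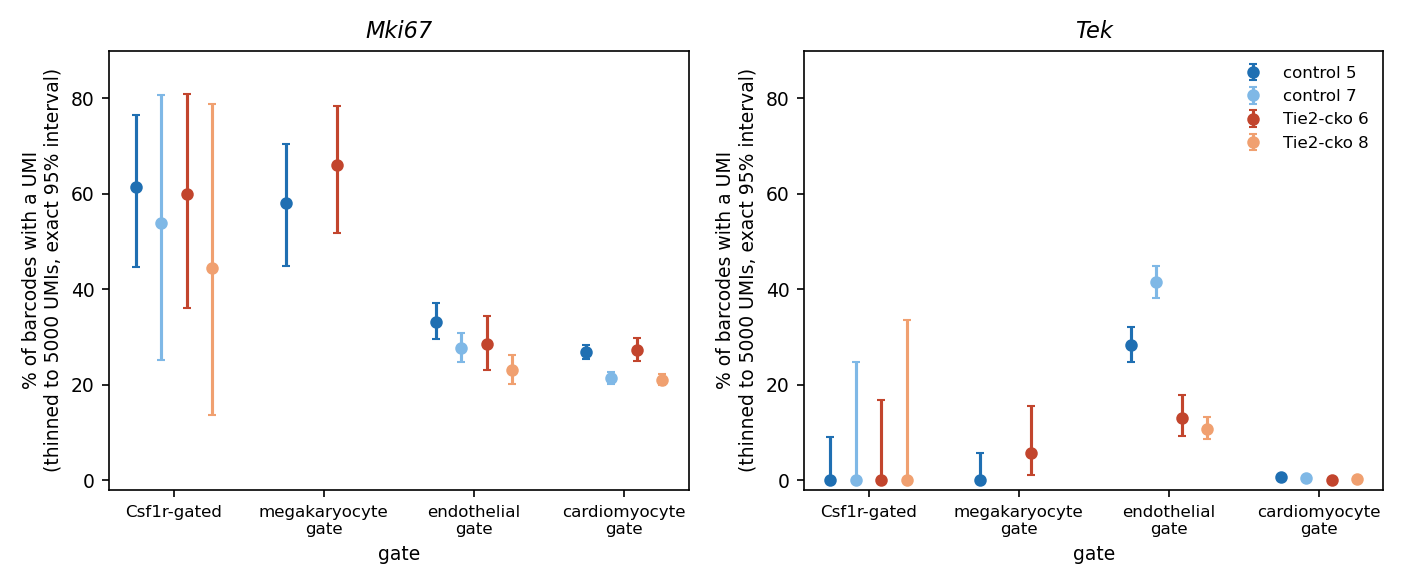
Share of barcodes with at least 1 UMI of *Mki67* (left) and *Tek* (right) after thinning to 5000 UMIs, by gate and library, with exact 95% binomial intervals; groups of fewer than 9 barcodes are not drawn. *Mki67* was seen in 44.4% to 61.5% of *Csf1r*-gated cells, and *Tek* in 0% of them in all 4 libraries.

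Whether loss of endocardial *Tie2* changed how many of these cells the heart held was asked by comparing shares of kept barcodes. The shares were 0.432% (exact 95% binomial interval 0.308% to 0.591%) in control 5, 0.163% (0.0869% to 0.279%) in control 7, 0.537% (0.344% to 0.798%) in *Tie2-cko* 6 and 0.112% (0.0535% to 0.205%) in *Tie2-cko* 8. The libraries 5 and 6 were high and 7 and 8 low, so the genotypes overlapped. Means were 0.298% ± 0.190 in controls and 0.324% ± 0.301 in *Tie2-cko* (SD, n = 2 each), a difference of 0.0265 percentage points (*Tie2-cko* minus control; exact permutation test, two-sided, p = 1, where 2 against 2 libraries cannot give less than 0.333). Megakaryocyte barcodes, gated on *Itga2b* and platelet genes, were spread likewise, with 62 and 53 in libraries 5 and 6 and 2 and 7 in libraries 7 and 8; kept barcodes of no gate made up 40.3%, 49.8%, 33.4% and 35.7% of libraries 5 to 8. Without *Tie2-cko* 6 the difference was -0.186 and without control 7 it was -0.108. With all 4 libraries it was -0.0238 without the 5 deepest barcodes and -0.0120 with a stricter exclusion of mixed barcodes. In cells with *C1qb* it was -0.0441, so its direction rested on single libraries and on a few barcodes. The part of dissection in these shares was not tested. Intervals cover counting error only.

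Gene expression was compared between genotypes on the UMIs of all *Csf1r*-gated cells summed per library, with 2 libraries in each arm. In edgeR (quasi-likelihood F-test, Benjamini-Hochberg), 0 of 6702 genes passed an adjusted p of 0.05 (0%), while 428 had an unadjusted p under 0.05. DESeq2, run on 15688 genes without the edgeR filter on low counts, called 13. In edgeR a block of libraries 5 and 6 against 7 and 8, which assumes a pairing, gave 25 calls. No filter on low counts gave 232, and cells with at least 2 *Csf1r* UMIs gave 61. Without the 5 deepest barcodes the test again called 0 genes, of 6486 (0%), and 177 had an unadjusted p under 0.05. The count depended on single libraries: it was 28 without *Tie2-cko* 6, 56 without control 7 and 420 without *Tie2-cko* 8, where the lone library of an arm is assumed to vary like the other arm. The genotypes did not overlap for 2265 of the 6702 genes (33.8%). Nothing in the labels says that the libraries of a genotype came from separate embryos, so p-values measure only the spread between these libraries, which may be technical.

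The smallest adjusted p with all 86 cells was 0.0871, and genes of other heart cells were among those near it. *Ttn*, the giant sarcomere protein, was at 0.762, 0.630, 2.29 and 1.66 per 10000 in controls 5 and 7 and *Tie2-cko* 6 and 8 with all cells, with both *Tie2-cko* libraries above both controls, and had a log2 fold change of 2.58 ± 0.44 (SE; edgeR, adjusted p = 0.0890). The 5 deepest barcodes held 1142 of its UMIs in *Tie2-cko* 6 and 48 in *Tie2-cko* 8. Without them the levels were 0.762, 0.630, 0.264 and 0.969, the genotypes overlapped, and the log2 fold change was -0.76 ± 0.42 (adjusted p = 0.999). *Emcn*, an EdC marker, held 62 and 24 UMIs in the deep barcodes of *Tie2-cko* 6 and 8 and stood at 0.0138 and 0 per 10000 without them.

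Among the macrophage genes, *C1qb* was at 10.3 and 10.4 per 10000 in controls 5 and 7 and 6.42 and 5.57 in *Tie2-cko* 6 and 8 without the deep barcodes, so the genotypes did not overlap. Its log2 fold change was -0.86 ± 0.19 (adjusted p = 0.670), and -1.07 ± 0.29 (adjusted p = 0.327) with all 86 cells. *Slc40a1* was at 0.738, 1.17, 0.375 and 0.0976, again without overlap, with -1.93 ± 0.39 (adjusted p = 0.670) and -2.13 ± 0.34 (adjusted p = 0.0871). *Klf2*, a flow-responsive transcription factor named here after its values were seen, was at 3.19, 4.46, 2.07 and 0.346 and had a log2 fold change of -1.60 ± 0.24 with all cells (adjusted p = 0.0871). *Hmox1* was at 6.46, 2.42, 3.51 and 0.0959, with overlap between the genotypes. None of these passed the test as first fitted. With all 4 libraries *C1qb* passed in cells with at least 2 *Csf1r* UMIs (adjusted p = 0.0212) and without the filter on low counts (adjusted p = 0.00107), and *Slc40a1* in both (adjusted p = 0.0146 and 6.52e-06) and with a block of libraries 5 and 6 (adjusted p = 0.0428). With *Tie2-cko* 8 left out, *C1qb* passed at -1.65 (adjusted p = 7.59e-06) and *Slc40a1* at -2.35 (adjusted p = 7.81e-07), and with control 7 left out *Slc40a1* passed at -2.06 (adjusted p = 0.0482).

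By list, no macrophage list held a called gene in either fit. Of the 13 lysosomal genes tested without the deep barcodes, 13 had lower fitted values in *Tie2-cko*, with a median log2 fold change of -0.28. An unadjusted p under 0.05 was found for 3 of them, beside 177 of all 6486 genes. Of 9 iron and heme genes 9 were lower (median -0.49) and of 8 lipid genes 8 were lower (median -0.58), beside a median of 0.0033 over the 6486 genes tested, of which 3216 were lower. The share of C1q+ cells differed between libraries (25 of 39, 9 of 13, 10 of 20 and 7 of 9 in controls 5 and 7 and *Tie2-cko* 6 and 8). In the C1q+ cells alone 13 of 13, 9 of 9 and 8 of 8 genes of these lists were lower (medians -0.38, -0.59 and -0.69, beside -0.010 over 4658 genes), and 0 were called. An unadjusted p under 0.05 was found for 3, 2 and 1 of them, beside 167 of all 4658 genes. Yet the lysosomal sum in C1q+ cells of *Tie2-cko* 6, 47.6, was near the 48.6 of control 5. *Tie2-cko* 8 had the lowest level for *Ctsb*, *Slc40a1*, *Hmox1* and *Apoe*. Of 21 macrophage identity genes 11 were higher and 10 lower, of 12 S phase genes 9 higher and 3 lower, and of 13 G2 and mitosis genes 6 higher and 7 lower. *Mpo* and *Prtn3* had log2 fold changes of 0.36 ± 0.45 and 0.20 ± 0.35 (adjusted p = 0.999 for both). These lists share the same 4 libraries and are given as counts.

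**Figure D4:**
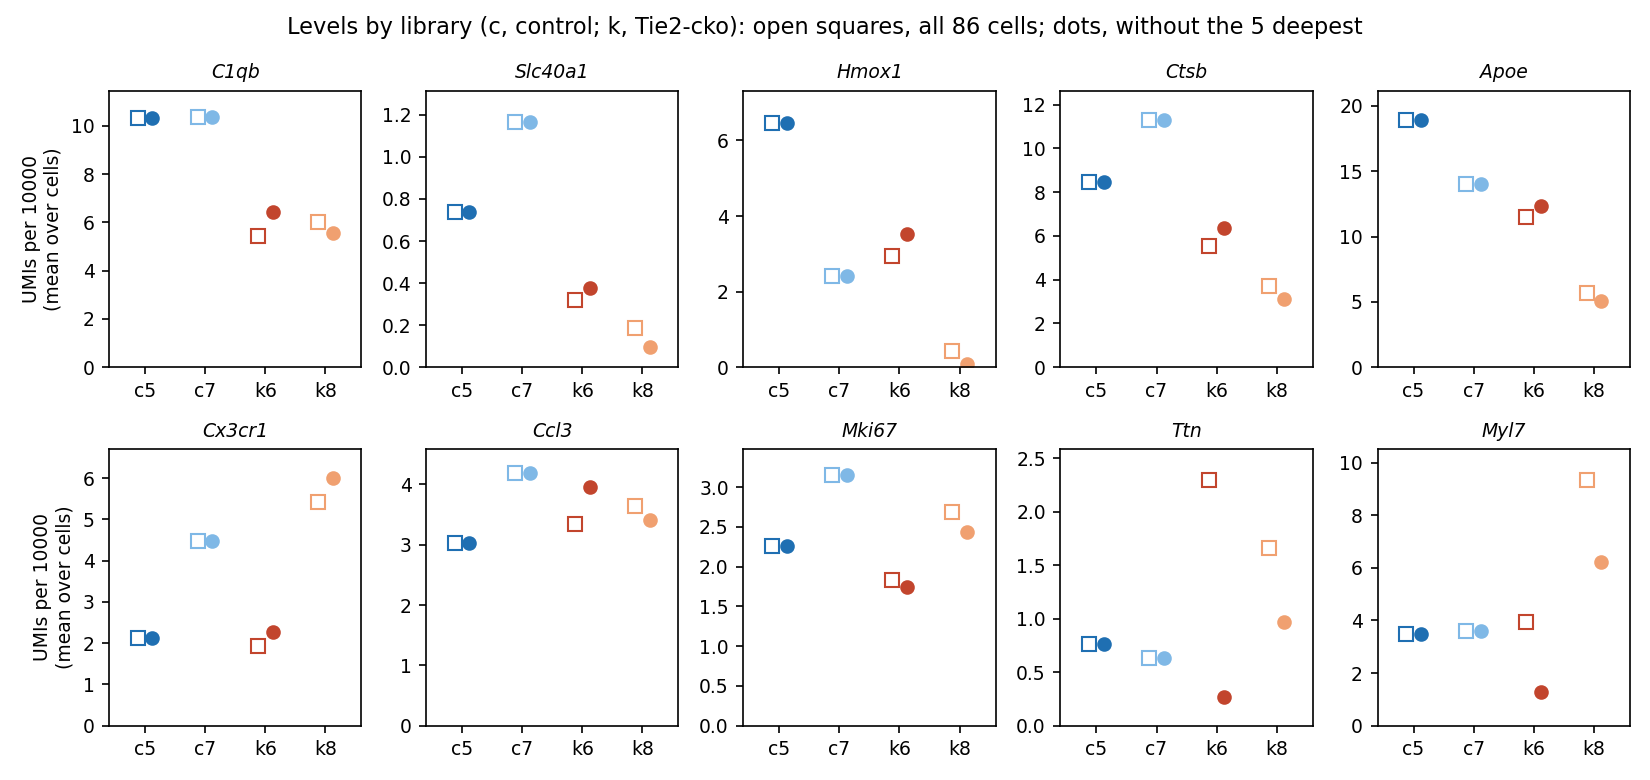
Mean level of 10 genes in the *Csf1r*-gated cells of each library (UMIs per 10000, linear axes from 0), with all 86 cells as open squares and without the 5 deepest barcodes as dots. *C1qb* and *Slc40a1* are lower in both *Tie2-cko* libraries, while *Ttn* is above the controls in *Tie2-cko* 6 only with the deep barcodes.

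Whether genotype acted otherwise in the *Csf1r*-gated cells than in the remaining barcodes was tested as an interaction of cell class and genotype, with the library as a block. With all 86 cells, 303 of 15089 genes passed (2.01%; edgeR's quasi-likelihood test, Benjamini-Hochberg adjustment), 282 of them with the higher genotype effect in the gate. Without the 5 deepest barcodes 19 of 13691 passed (0.139%), 2 of them higher. Leaving out a library moved the count with all cells to 94 (control 5), 36 (*Tie2-cko* 6), 134 (control 7) and 495 (*Tie2-cko* 8). *Ttn* led with all cells, at a log2 difference of 2.59 (adjusted p = 2.26e-20), and stood at -0.58 (adjusted p = 1.00) without them. *Hmox1* passed in both fits, at -2.03 (adjusted p = 1.51e-09) and -1.77 (adjusted p = 1.49e-06), with levels in the rest of 0.116, 0.132, 0.148 and 0.140 in controls 5 and 7 and *Tie2-cko* 6 and 8. The hepatic endoderm genes *Afp*, *Apoa2* and *Ttr* and the retinol carrier *Rbp4* were among the 19. The hepatic list summed to 1.67, 0.0250, 0.261 and 0 in the 81 cells, most of it in control 5. *Klf2* was also among the 19, at -1.27 (edgeR quasi-likelihood test, adjusted p = 0.00349).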

How the data were processed

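Single-cell suspensions of E10.5 mouse hearts were captured on the 10x Chromium Controller and sequenced. The authors made the deposited count matrices, which hold whole UMI counts per gene and barcode, with Cell Ranger; the file header names version 6.1.2 and the submitters' notes name mm10. The stated clustering was done in Seurat, but no cell annotation was used here. The gate, the gene lists and the comparisons were chosen with earlier results of these data known. Genes were named by list membership, by the 20 largest ratios to the other kept barcodes and, for genotype, by passing the test; others are said to be chosen after their values were seen. From the counts, levels were computed as UMIs per 10000 in each cell and averaged over cells; UMIs were not scaled by gene length. No doublet caller was run; mixed barcodes were handled by the gate limits, by stricter limits and by leaving out barcodes deeper than 2 times the median. Shares of barcodes with a UMI were also given after random thinning of each barcode to 5000 UMIs (seed 1), without the 5 deepest cells. Total depth was 259775540, 222270938, 169361996 and 210062861 UMIs in libraries 5, 6, 7 and 8. For genotype, UMIs were summed over cells per library and tested with edgeR 4.0.16 (TMM, filterByExpr, quasi-likelihood F-test, Benjamini-Hochberg adjustment) in R 4.3.3, and with DESeq2 1.42.0 as an alternative; the scripts were tested on simulated data with known changes. Shares were compared by an exact permutation test. Alternatives were other depth, mitochondrial and marker limits, other denominators, no filter on low counts, DESeq2 size factors and each library left out. Added after seeing the data were keeping only the cells with *C1qb* and splitting the cells by it. Start regions came from RefSeq (GRCm38.p6) and gene positions from GENCODE M21. A few listed genes are not reported here.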

Additional observations from a re-analysis of the deposited data

Results flagged for a closer look

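For 6 listed genes the difference between the genotype effect in the *Csf1r*-gated cells and that in the other kept barcodes passed the interaction test of edgeR (quasi-likelihood, Benjamini-Hochberg adjustment), both with all 86 cells and without the 5 deepest barcodes. Each value below is the log2 fold change in the gate minus that in the rest, *Tie2-cko* against control, with all cells. *Pf4*, a chemokine of megakaryocytes and some macrophages, stood at -3.46 (adjusted p = 1.44e-09), and at -2.70 (adjusted p = 4.46e-06) without the deep barcodes. Its level in the gate without the deep barcodes was 0.689 and 0.730 per 10000 in controls 5 and 7 and 0.634 and 0.121 in *Tie2-cko* 6 and 8, and in the rest 0.209, 0.0189, 0.405 and 0.112. Megakaryocyte barcodes numbered 62, 2, 53 and 7 in the same order, and their part in the levels of the rest was not tested.

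*Hmox1* stood at -2.03 (adjusted p = 1.51e-09). The embryonic globins *Hba-x* and *Hbb-bh1* stood at -1.06 (adjusted p = 9.47e-05) and -1.11 (adjusted p = 0.000495). *Hba-x* was at 13.04, 4.47, 3.07 and 1.38 in the gate and at 181, 101, 148 and 30.1 in the rest, while red blood cell barcodes, which the *Hbb-y* limit kept out of the gate, numbered 1264, 608, 491 and 192 in the rest. In cardiomyocyte barcodes *Hba-x* was at 14.8, 5.52, 4.64 and 2.43. The globin contrast thus compares a gate limited in globin with a rest that is not, and nothing is read from it. *Ccl3* stood at 1.49 (adjusted p = 0.0155) and *Cx3cr1* at 1.40 (adjusted p = 0.0335), but both were at no more than 0.00155 per 10000 in the rest and were tested only because of their level in the gate. There their log2 fold changes were -0.38 and 0.034, so these values rest on the few UMIs outside the gate and are not read as a genotype difference. In the gate *Cx3cr1* was at 2.12 and 4.49 in controls 5 and 7 and at 2.28 and 6.01 in *Tie2-cko* 6 and 8, so the genotypes overlapped. Groups of 2 libraries were too small to look for single outlying libraries.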

How the results depend on the processing

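The count of genes by genotype, 0 with all cells, was 61 with at least 2 *Csf1r* UMIs, 232 without a filter on low counts and 13 by DESeq2 (each over 15688 genes, so DESeq2 changed tool and filter together), and 25 with a block of libraries 5 and 6 against 7 and 8, and ranged from 0 to 420 when a library was left out. The interaction count, 303, was 42 with at least 1 *Ptprc* UMI, 22 with a stricter exclusion of mixed barcodes, 19 without the 5 deepest barcodes and 20 in cells with *C1qb* (chosen after seeing the data), and ranged from 36 to 495 with a library left out. The share difference, 0.0265 percentage points, turned to -0.0120 with the stricter exclusion, -0.0238 without the deepest barcodes and -0.0441 in cells with *C1qb*, to -0.186 without *Tie2-cko* 6 and -0.108 without control 7, and ranged from -0.186 to 0.239 with a library left out. The *Cx3cr1* log2 fold change, 0.034, turned to -0.37 with at least 2 *Csf1r* UMIs, -0.37 without control 5, -1.10 without *Tie2-cko* 8 and -0.13 with the block, and ranged from -1.10 to 0.75 with a library left out. *C1qb* and *Slc40a1* stayed lower in *Tie2-cko* under every setting run and passed the threshold in 3 and 5 of them. The causes were not tested. The genotypes share no replicate number in the labels, so which libraries formed a pair is not known, and the block with its 25 calls rests on an assumed pairing. With 9 to 39 cells a library, depth limits the low genes.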
